A study of Mus musculus with 22 samples.

Results

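Notch1, Notch2 and Notch3 are receptors that a thymocyte uses to read Notch ligands on neighbouring cells, and Dtx1, Hes1, Heyl, Nrarp, Igf1r and Adam19 are genes described as targets of Notch signalling. These 9 genes were chosen by name. All 9 of them were found by symbol among the 43430 genes of each of 3 tables of FPKM, fragments per kilobase of transcript scaled to sequencing depth, which is a level per length and can be compared between genes. The 22 libraries came from thymus cells sorted as CD45.1+ and CD4+CD8+ (double-positive), a middle stage of thymocyte maturation, in mice with or without the transcription factor E2a, whose gene symbol is Tcf3. At 4 weeks of age there were 3 Vav knockouts (VavCre E2aF/F) with 3 controls (E2aF/F) in the first table, and 3 Lck knockouts (LckCre E2aF/F) with 3 controls (E2aF/F) in the second. At 8 weeks the third table held 3 Vav knockouts, 3 controls and 4 transplanted knockouts. The last were VavCre E2aF/F mice that had been sublethally irradiated and given WT bone marrow, analysed 4 weeks after transplantation. All groups carried the floxed E2a alleles, and no Cre is named for any control. Vav drives Cre across blood cell lineages and Lck drives it in developing T cells. The labels do not say which Lck promoter was used, or which cells of the transplanted mice carried CD45.1. They call the libraries replicates without naming animals, so the p-values measure the spread between libraries, which may be technical.

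A Notch receptor bound by a ligand of the Delta or Jagged family is cut by an ADAM protease and then by gamma-secretase. The freed intracellular domain enters the nucleus, where it joins the DNA-binding protein RBPJ and Mastermind and turns on target genes. In the thymus, Notch1 signals commit progenitors to the T lineage and carry them through beta-selection, after which receptor and target genes are turned down in double-positive cells. Activating mutations of NOTCH1 are common in T cell acute lymphoblastic leukaemia, the disease named in the title of the study. E proteins such as E2a work at many of the same early T lineage genes.

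The deletion itself was visible in every library. Tcf3 lay between 6.39 and 8.22 FPKM in the 9 controls and between 1.15 and 2.32 FPKM in the 13 libraries with a Cre, so the groups did not overlap. Reads per library, inferred from the steps between low FPKM values, ranged from 5.49 M in Lck knockout replicate 2 to 37.5 M in Vav control replicate 3 at 4 weeks. Transplanted replicate 3 stood apart: 18.9% of its genes with 1 to 10 reads had exactly 1 read, against 30.4% to 33.0% in the other 9 libraries of its table. All 6 double-positive markers summed here (Cd4, Cd8a, Cd8b1, Rag1, Rag2 and Cd3e) were detected in every group. Their summed level was 3670 to 3973 FPKM in the 3 control groups, 2720 to 3302 in Vav knockouts at 4 weeks, 3368 to 3552 in Lck knockouts, 1690 to 1970 in Vav knockouts at 8 weeks and 1156 to 2637 in transplanted knockouts. In sorted bulk samples, fewer cells of a type and less RNA per cell cannot be told apart.

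In mm10 coordinates of GENCODE M21, Notch1 (ENSMUSG00000026923) lies on the minus strand of chromosome 2 from 26457903 to 26516663, and Nrarp (ENSMUSG00000078202) on the plus strand of the same chromosome from 25180758 to 25183339. Notch2 (ENSMUSG00000027878) spans 98013527 to 98150361 of chromosome 3, plus strand, and Notch3 (ENSMUSG00000038146) spans 32120820 to 32166852 of chromosome 17, minus strand. Dtx1 (ENSMUSG00000029603) is on chromosome 5 from 120680202 to 120711927, minus strand. Hes1 (ENSMUSG00000022528) is on chromosome 16 from 30064384 to 30067796, plus strand. Heyl (ENSMUSG00000032744) is on chromosome 4 from 123233556 to 123249875, plus strand. Igf1r (ENSMUSG00000005533) is on chromosome 7 from 67952827 to 68233668, plus strand. Adam19 (ENSMUSG00000011256) is on chromosome 11 from 46055992 to 46147343, plus strand. The values below are for whole genes.

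RefSeq windows of 300 bases around the transcription start (250 before, 50 after, build GRCm38.p6) were found for 7 of the 9 genes; Hes1 and Heyl had no entry. On both strands, each window was searched for the RBPJ core TGGGAA, for any E box CANNTG, and for the E boxes CAGCTG and CACCTG that E proteins prefer, which are themselves CANNTG. Over all 32851 windows of this length, 25.6% held the RBPJ core, 72.3% an E box and 32.9% an E box of the preferred kind. Notch1, Notch2, Notch3 and Dtx1 had 0 matches to any of the 3, Igf1r had the RBPJ core once, Nrarp had 2 E boxes (CACGTG at -108 and CAGCTG at +33 from the start) and each of the 3 Adam19 starts had an E box of the preferred kind. A match is a description of letters, and 0 matches says only that these letters are not in this window. The windows of Notch1 and Dtx1 are shown because these genes carry the changes described below, that of Nrarp because its level behaved differently from theirs, and the third Adam19 start because it held the most preferred E boxes, 4. Capitals mark the RBPJ core or a preferred E box, each window reads 5′ to 3′ on the gene's strand, and the positions are chr2:26503773-26504072 (minus), chr5:120711620-120711919 (minus), chr2:25180508-25180807 (plus) and chr11:46127654-46127953 (plus).
Notch1: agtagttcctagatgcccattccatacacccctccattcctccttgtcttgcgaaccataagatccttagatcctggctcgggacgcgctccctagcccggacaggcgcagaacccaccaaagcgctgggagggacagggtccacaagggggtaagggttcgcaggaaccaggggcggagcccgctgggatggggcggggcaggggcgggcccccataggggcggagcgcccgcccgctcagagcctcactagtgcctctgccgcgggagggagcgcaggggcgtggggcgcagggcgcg
Dtx1: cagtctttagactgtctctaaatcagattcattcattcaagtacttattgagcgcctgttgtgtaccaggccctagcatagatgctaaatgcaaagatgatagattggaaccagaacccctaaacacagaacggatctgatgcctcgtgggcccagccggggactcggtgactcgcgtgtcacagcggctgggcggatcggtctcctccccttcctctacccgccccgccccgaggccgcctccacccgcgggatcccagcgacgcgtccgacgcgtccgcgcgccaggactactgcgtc
Nrarp: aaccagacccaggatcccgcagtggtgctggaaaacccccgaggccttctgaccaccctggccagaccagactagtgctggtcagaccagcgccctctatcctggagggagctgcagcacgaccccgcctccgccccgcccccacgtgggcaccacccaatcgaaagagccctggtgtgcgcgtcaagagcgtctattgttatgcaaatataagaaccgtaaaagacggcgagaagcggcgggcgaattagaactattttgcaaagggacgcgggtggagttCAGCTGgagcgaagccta
Adam19: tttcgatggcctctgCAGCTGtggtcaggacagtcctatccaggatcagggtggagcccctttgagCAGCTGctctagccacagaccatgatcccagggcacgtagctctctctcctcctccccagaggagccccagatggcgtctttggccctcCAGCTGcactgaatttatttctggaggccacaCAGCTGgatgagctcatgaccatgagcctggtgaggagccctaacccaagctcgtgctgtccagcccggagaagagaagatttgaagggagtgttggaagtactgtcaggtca

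The Vav comparison at 4 weeks shows what these genes did in young thymocytes that lost E2a before T cell development. Notch1, Notch3 and Dtx1 rose, Dtx1 by the most of the 5 genes tested, and Igf1r fell. Hes1, Heyl and Adam19 lay below the level for that test in controls and were higher in every knockout library, and Notch2 was not called. Of the 9 genes, 5 had at least 1 FPKM in at least 3 libraries and were tested with limma, and 3 were higher and 1 lower at an adjusted p under 0.05. Over all 10828 genes tested, 13.7% passed, 7.63% higher and 6.08% lower. The median change of the 5 was 1.23 on the log2(FPKM + 1) scale, against -0.00835 over all genes tested. That scale understates the change of low genes.

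Among the receptors, Notch1, which carries the signal for T lineage commitment, read 16.2, 15.2 and 16.2 FPKM in the Vav controls and 36.1, 59.4 and 40.6 FPKM in the Vav knockouts. Every knockout library was above every control, and replicate 2 was the highest. The change was 1.43 ± 0.17 (log2, SE, 3 against 3 libraries, adjusted p = 0.00507), and it passed in all 15 alternatives with adjusted p from 0.00147 to 0.0319. Notch3, a receptor that is itself turned on by Notch1 signalling in early thymocytes, read 11.0, 9.89 and 10.1 FPKM in controls and 28.3, 36.4 and 16.2 FPKM in knockouts. The groups did not overlap, and replicate 3 was the lowest of the knockouts. Its change of 1.23 ± 0.26 (adjusted p = 0.0281) no longer passed without control replicate 1, 2 or 3 or without knockout replicate 1 (0.071 to 0.0981), with a log2 change between 0.99 and 1.55 over all 15 alternatives. Notch2, the receptor needed for marginal zone B cells, had 5.504, 5.06 and 5.31 FPKM in controls and 5.09, 7.35 and 4.76 FPKM in knockouts. These ranges overlapped, and the change was 0.08 with a 95% interval from -0.26 to 0.42 (adjusted p = 0.762).

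Dtx1 encodes Deltex1, a ubiquitin ligase that binds the Notch intracellular domain and is a classic read-out of Notch signalling in thymocytes. It read 1.07, 1.59 and 1.47 FPKM in the Vav controls and 23.0, 20.8 and 10.7 FPKM in the knockouts, with replicate 3 again the lowest. The change was 2.95 ± 0.27 (adjusted p = 0.00251) and passed in all 15 alternatives (0.00145 to 0.0195). Igf1r, the receptor for insulin-like growth factor 1, described as a NOTCH1 target in T cell leukaemia, went the other way. It read 6.01, 4.70 and 4.82 FPKM in controls and 2.45, 3.78 and 2.34 FPKM in knockouts, without overlap. The change of -0.69 ± 0.16 (adjusted p = 0.0339) failed without control replicate 1, 2 or 3 and without knockout replicate 1 or 3 (0.0821 to 0.116).

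The remaining targets were below the level needed for the test at 4 weeks. Hes1, a repressor of the Hairy/Enhancer of split family, had 0.0205, 0.0296 and 0 FPKM in the Vav controls, which is 2, 3 and 0 reads. The knockouts had 0.807, 1.84 and 0.726 FPKM, or 75, 164 and 74 reads, so every knockout library was above every control. Heyl, a related repressor, had 0.143, 0.0865 and 0.111 FPKM (27, 17 and 23 reads) in controls and 0.917, 2.48 and 1.75 FPKM (165, 428 and 346 reads) in knockouts. All its knockout libraries were above all controls. Adam19, a membrane-bound metalloprotease, had 0.0842, 0.108 and 0.0824 FPKM in controls and 1.23, 1.13 and 0.862 FPKM in knockouts, with the least spread of the 3. Nrarp, a small ankyrin-repeat protein that binds the Notch transcription complex and limits it, had 0.511, 0.251 and 0.362 FPKM in controls and 1.14, 1.04 and 0.326 FPKM in knockouts. Knockout replicates 1 and 2 were above all controls and replicate 3 was among them.

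Without the filter on low values all 9 genes could be fitted, and 4 were higher (Notch1, Dtx1, Heyl and Adam19) and 0 lower, where 5.3% of all 23006 genes passed. Heyl changed by 1.25 (adjusted p = 0.0416), Adam19 by 0.92 (0.00877), Hes1 by 1.03 (0.0523) and Nrarp by 0.39 (0.375). Notch3 (0.0788) and Igf1r (0.0876) missed the threshold in that fit. With a pseudocount of 0.1 in place of 1, an alternative added after the low levels had been seen, Hes1 changed by 3.29 (adjusted p = 0.0131), Heyl by 2.997 (0.016) and Adam19 by 2.61 (0.00752). In 6 of the 9 genes every knockout library was above every control, and in 1, Igf1r, every one was below. Over all genes of the unfiltered fit these shares were 13.6% and 13.1%. Scaling each library to a common sum of FPKM turned the split of calls over all genes from 826 higher and 658 lower to 606 and 1001. Markers of other cells moved too. The summed level of 4 gamma-delta T cell markers was 3.19 to 3.68 FPKM in Vav controls and 24.2 to 75.7 in Vav knockouts, that of 6 myeloid and dendritic markers 0.613 to 0.644 and 1.74 to 2.85, and that of 6 B cell markers 6.39 to 7.08 and 0.763 to 1.21. Of these lists only Ms4a1 and Pax5, both B cell markers, were at 0 in all 3 knockouts, and the part of these cells in the Notch values was not tested.

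**Figure D1:**
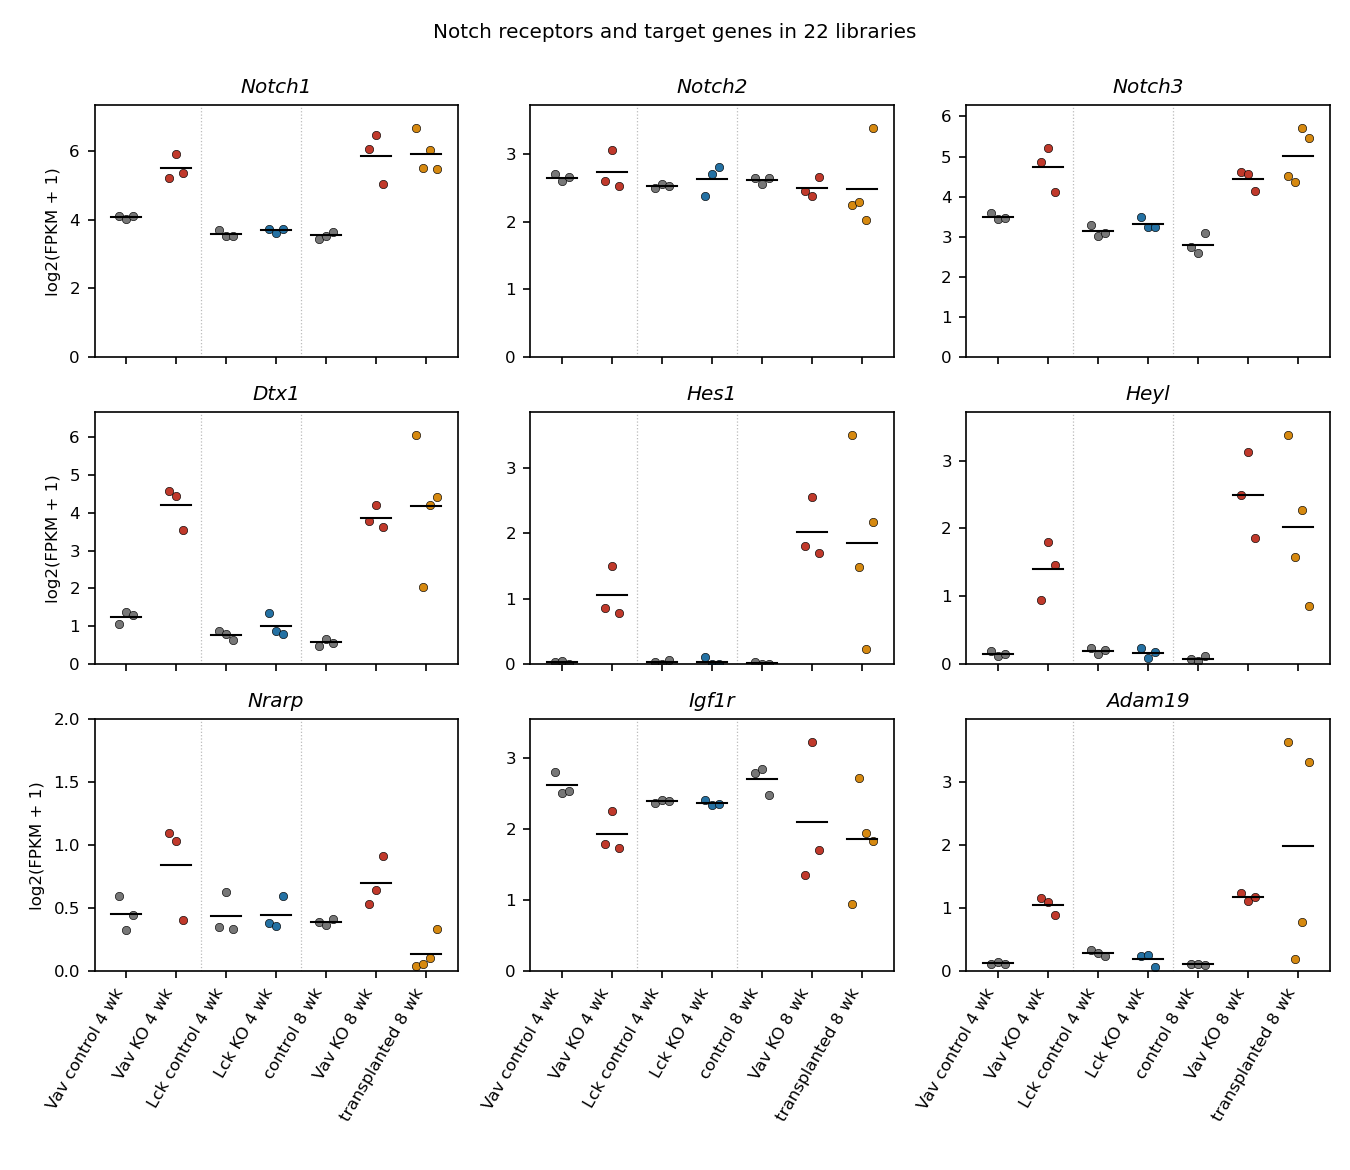
Level of each gene in every library as log2(FPKM + 1) (vertical axis, its own range for each gene), by group, where points are libraries, horizontal bars are group means and dotted lines separate the 3 tables. Notch1, Notch3, Dtx1, Hes1, Heyl and Adam19 stand above their controls in the Vav knockouts at both ages and in the transplanted knockouts, and 9 of 9 genes overlap their controls in the Lck knockouts.

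After deletion by LckCre at the same age, none of these changes was called. Only 4 of the 9 genes reached the level for the test, and 0 passed, also at an unadjusted p under 0.05. In that comparison 1% of 10946 genes passed (22 higher and 88 lower, or 6 and 88 after scaling to a common sum), and 1503 had an unadjusted p under 0.05. In 9 of 9 genes the knockout and control libraries overlapped, where 7.89% of all genes of the unfiltered fit lay wholly above and 6.44% wholly below the controls. Notch1 read 12.1, 10.6 and 10.6 FPKM in the Lck controls and 12.4, 11.3 and 12.3 FPKM in the Lck knockouts. The change was 0.11 with a 95% interval from -0.05 to 0.27 (adjusted p = 0.556), so an increase as large as that in the Vav knockouts lay outside it. Notch3 read 8.85, 7.07 and 7.56 FPKM in controls and 10.3, 8.54 and 8.47 FPKM in knockouts, a change of 0.19 (interval -0.05 to 0.44). Igf1r read 4.15 to 4.33 FPKM in controls and 4.06 to 4.32 FPKM in knockouts, and Notch2 4.66 to 4.86 and 4.19 to 6.003 FPKM.

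The low targets gave the same picture in the Lck table. Dtx1 had 0.824, 0.742 and 0.566 FPKM in the Lck controls and 1.53, 0.818 and 0.739 FPKM in the knockouts, where replicate 1 alone was above the controls. Hes1 had 1, 0 and 2 reads in controls and 3, 0 and 0 reads in knockouts. Heyl had 15, 10 and 13 reads in controls and 14, 2 and 11 in knockouts, where the 2 reads belong to the library with the fewest reads. Nrarp read 0.264 to 0.546 FPKM in controls and 0.282 to 0.510 FPKM in knockouts. Adam19 read 0.267, 0.222 and 0.174 FPKM in controls and 0.176, 0.194 and 0.049 FPKM in knockouts. Without the filter 0 of 9 passed, 0 of 9 had an unadjusted p under 0.05, and 0.296% of all 21255 genes passed. The interval of the Hes1 change in that fit was -0.09 to 0.09 and that of Heyl -0.15 to 0.09.

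The difference between the Vav and the Lck effect was tested as an interaction over the 12 libraries of 4 weeks. Each effect is taken against the controls of its own table. Of the 4 genes tested, 1 passed, Notch1, where 3.3% of all 10541 genes passed. The Vav effect on Notch1 was larger by 1.32 ± 0.20 (interval 0.87 to 1.77, adjusted p = 0.00697), and this passed in all 21 alternatives (0.000521 to 0.0372). For Notch3 the difference was 1.04 (interval 0.35 to 1.73, adjusted p = 0.103), and it passed without Vav knockout replicate 3 (1.355, adjusted p = 0.00457, range over alternatives 0.00457 to 0.213). For Igf1r it was -0.67 (interval -1.06 to -0.28, adjusted p = 0.0701), and it passed without Vav knockout replicate 2 (-0.83, 0.0041, range 0.0041 to 0.161). Without the filter, Dtx1 (2.72, adjusted p = 0.00783), Heyl (1.275, 0.0334) and Adam19 (1.025, 0.0021) also passed, where 1.8% of all 23830 genes did, and Hes1 had 1.02 (0.0532). Notch2 differed by -0.03 with an interval from -0.46 to 0.40.

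At 8 weeks the Vav knockouts held the same genes at high levels. Notch1 and Notch3 rose, and Dtx1 and Heyl were called with the filter on low values but not without it. Hes1 and Adam19 were higher in every knockout library without passing the test, and Igf1r spread widely. Of the 9 genes, 8 were tested, and 4 were higher and 0 lower, where 9.1% of all 11632 genes passed, 4.65% higher and 4.45% lower. Dtx1, Hes1, Heyl and Adam19 passed the filter only through the groups in which they are high. In the limma fit without it, Dtx1 (adjusted p = 0.0682) and Heyl (0.067) did not pass. That left 2 of the 9 genes, where 3.69% of all 23058 genes passed. Notch1 read 9.97, 10.7 and 11.6 FPKM in controls and 65.8, 87.9 and 32.0 FPKM in Vav knockouts, all above the controls. The change was 2.31 ± 0.39 (adjusted p = 0.00891), with 0.0524 to 0.0588 without control replicate 1, 2 or 3 and 0.00285 to 0.0588 over all alternatives. Notch3 read 5.67, 4.99 and 7.50 FPKM in controls and 23.4, 22.8 and 16.6 FPKM in knockouts, a change of 1.64 ± 0.35 (adjusted p = 0.0229), which did not pass without any 1 of these 6 libraries (0.0529 to 0.108). Notch2 read 4.87 to 5.24 FPKM in controls and 4.18 to 5.34 FPKM in knockouts.

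Of the targets at 8 weeks, Dtx1 read 0.403, 0.590 and 0.479 FPKM in controls and 12.6, 17.3 and 11.3 FPKM in Vav knockouts. Every knockout library was far above every control, and the change was 3.29 ± 0.77 (adjusted p = 0.0322, and 0.0906 to 0.121 without any 1 of these 6 libraries). Heyl read 0.0515, 0.0333 and 0.0857 FPKM in controls (5, 2 and 10 reads) and 4.61, 7.76 and 2.61 FPKM in knockouts (489, 617 and 272 reads), a change of 2.41 ± 0.56 (adjusted p = 0.0313, and 0.0551 to 0.119 without any 1 of them). Hes1 had 1, 0 and 0 reads in controls and 136, 200 and 121 reads, or 2.48, 4.87 and 2.25 FPKM, in knockouts. Its change was 2.01 ± 0.67 (adjusted p = 0.0869), and it passed with only the libraries of these 2 groups (0.00119), as it did without transplanted replicate 1 (0.0279) or 3 (0.0139); its alternatives ranged from 0.00119 to 0.216. Adam19 read 0.0848, 0.0785 and 0.0656 FPKM in controls and 1.35, 1.17 and 1.26 FPKM in knockouts, without overlap and with little spread. Its adjusted p was 0.404 in the shared fit of 10 libraries and 0.000834 with only these 2 groups, the extremes of its alternatives being 0.000834 and 0.547. With only these 2 groups 5005 genes passed over all genes, in place of 1059.

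Igf1r differed from one 8-week knockout library to the next. It read 5.91, 6.19 and 4.55 FPKM in controls and 1.56, 8.32 and 2.27 FPKM in Vav knockouts, so replicate 2 was above all controls and the others below. The change was -0.61 with an interval from -1.77 to 0.56 (adjusted p = 0.456). Nrarp read 0.309, 0.286 and 0.331 FPKM in controls (14, 8 and 18 reads) and 0.445, 0.566 and 0.885 FPKM in knockouts (22, 21 and 43 reads). All knockouts were above all controls, yet the difference of 0.31 in the unfiltered fit did not pass (adjusted p = 0.179). In all, 7 of the 9 genes had every knockout library above every control, where 18.3% of all genes of the unfiltered fit did. The 4 calls fell to 0 without control replicate 1, 2 or 3 and to 1, Notch1, without knockout replicate 1, 2 or 3. Without the filter 2 passed, Notch1 (0.0197) and Notch3 (0.0467), where 3.69% of all 23058 genes did. The count over all genes moved with them, to between 142 and 482 without 1 of these 6 libraries and to 3535 without transplanted replicate 3.

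**Figure D2:**
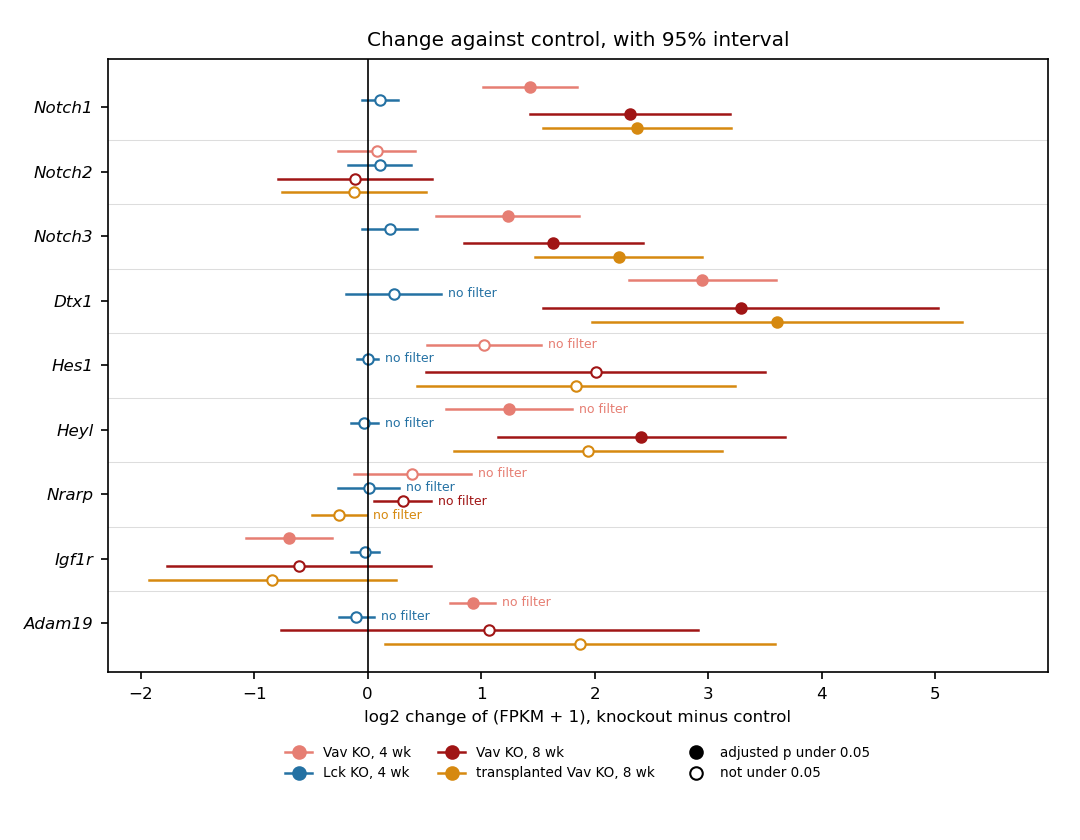
Change of each gene against the controls of its table on the log2(FPKM + 1) scale (horizontal axis), with 95% intervals as lines, filled points for an adjusted p under 0.05 and "no filter" where the gene was below the level for the main test. Dtx1 changed by 2.95 in Vav knockouts at 4 weeks, 3.29 at 8 weeks and 3.603 in transplanted knockouts, while the points of the Lck knockouts lie near 0.

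Whether the Vav effect differed between the ages was tested over 12 libraries. Of the 5 genes tested 0 passed, and 0 had an unadjusted p under 0.05, where 18.2% of all 10489 genes passed (930 higher and 983 lower, or 588 and 1234 after scaling to a common sum). For Notch1 the effect at 8 weeks was larger by 0.88 (interval -0.05 to 1.82, adjusted p = 0.172), and without Vav knockout replicate 3 of 8 weeks it was larger by 1.29 and passed (adjusted p = 0.00954, range over alternatives 0.00954 to 0.331). That library has the lowest Notch1 of its group. For Notch3 the difference was 0.40 (interval -0.37 to 1.18) and for Dtx1 0.34 (interval -0.42 to 1.095). In the unfiltered fit Hes1 (0.98, interval 0.23 to 1.74) and Heyl (1.17, interval 0.21 to 2.12) had unadjusted p-values of 0.0164 and 0.0217 that did not pass after adjustment (0.139 and 0.164), where 5.55% of all genes passed.

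In the transplanted knockouts Notch1, Notch3 and Dtx1 rose against the 8-week controls, and Notch2 was not called (change -0.12, adjusted p = 0.819). Of the 8 genes tested 3 were higher and 0 lower, where 9.19% of all 11632 genes passed, 4.59% higher. Without transplanted replicate 3 these counts were 5 Notch genes and 3814 genes, and without control replicate 1, 2 or 3 between 199 and 236 genes passed. Dtx1, Hes1, Heyl and Adam19 passed the filter only through the knockout groups, in which they are high. Without the filter 3 of 9 were higher, Notch1, Notch3 and Dtx1, where 990 of all 23058 genes passed. Notch1 read 101, 44.5, 64.4 and 43.6 FPKM in replicates 1 to 4, all above the highest control of 11.6 FPKM. The change was 2.37 ± 0.37 (adjusted p = 0.00506, passing in all 20 alternatives, 0.00283 to 0.0421), and it was 2.34 (0.00418) without replicate 3. Notch3 read 21.96, 19.7, 51.3 and 42.9 FPKM, a change of 2.21 ± 0.33 (adjusted p = 0.00401), and 1.98 (0.00184) without replicate 3. Notch2 read 3.75, 3.92, 3.09 and 9.43 FPKM, so replicate 4 was above and the other 3 below the controls.

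Dtx1 showed the widest range of the targets in the transplanted group, 65.2, 3.14, 17.3 and 20.4 FPKM. Replicate 1 was the highest of all 22 libraries and replicate 2 the lowest of the 10 Vav-deleted ones, but all 4 were above the controls. The change was 3.603 ± 0.72 (adjusted p = 0.0171, and 0.0123 without replicate 3), and it missed the threshold without control replicate 1, 2 or 3 (0.0806 to 0.0856) and with only these 2 groups (0.0524). Hes1 read 10.3, 1.80, 0.172 and 3.48 FPKM, or 402, 101, 10 and 161 reads. Replicate 3 came closest to the controls, with 10 reads against 0 to 1. The change of 1.84 (adjusted p = 0.101) became 2.37 (0.0064) without replicate 3, in a range over alternatives of 0.0064 to 0.261. Heyl read 9.38, 1.97, 3.84 and 0.816 FPKM, a change of 1.94 (adjusted p = 0.0506), which passed without replicate 3 (1.86, 0.0422) or replicate 4 (2.33, 0.0214), in a range of 0.00831 to 0.17.

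Adam19 split the transplanted libraries most sharply, with 11.4, 0.147, 0.715 and 8.91 FPKM. Replicates 1 and 4 were above every other library of the study, and replicate 2 was above the highest 8-week control of 0.0848 FPKM. The change was 1.87 (interval 0.16 to 3.59, adjusted p = 0.158). Cd163l1, 1 of the gamma-delta T cell markers, read 132, 0.192, 1.68 and 92.0 FPKM in the same 4 libraries. It does not stand for its list, whose sum was at least 35.3 FPKM in replicates 2 and 3 as well. The summed level of the 4 gamma-delta markers in the tables was 3.42 to 4.89 FPKM in the 8-week controls, 12.6 to 147 in Vav knockouts and 35.3 to 802 in transplanted knockouts, and that of the 6 myeloid and dendritic markers 0.687 to 1.91, 2.85 to 9.06 and 2.13 to 20.3. The 6 B cell markers summed to 6.27 to 7.74, 0.351 to 0.365 and 0.579 to 1.93 FPKM in these 3 groups, and the 4 erythroid markers to 13.9 to 30.7, 3.44 to 16.7 and 26.9 to 72.5. The gamma-delta markers were at 0 throughout in 0 groups, and the part of these lists in the Notch values was not tested. Igf1r read 0.931, 5.602, 2.85 and 2.56 FPKM, with replicates 1, 3 and 4 below all controls and replicate 2 among them (change -0.84, interval -1.93 to 0.25).

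Nrarp had 1, 2, 4 and 11 reads in the transplanted knockouts, or 0.0284, 0.0395, 0.0760 and 0.264 FPKM, all below the 8-week controls (0.286 to 0.331 FPKM) and the untransplanted knockouts (0.445 to 0.885 FPKM), where 2.06% of all genes were wholly below the latter. So 6 of the 9 genes lay above all controls and 1 below, where 7.43% and 8.83% of all genes of the unfiltered fit did. The difference from the controls, -0.25, did not pass (adjusted p = 0.249). The difference from the untransplanted knockouts was -0.56 (interval -0.80 to -0.33), with an unadjusted p of 0.000518 and an adjusted p of 0.442.

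**Figure D3:**
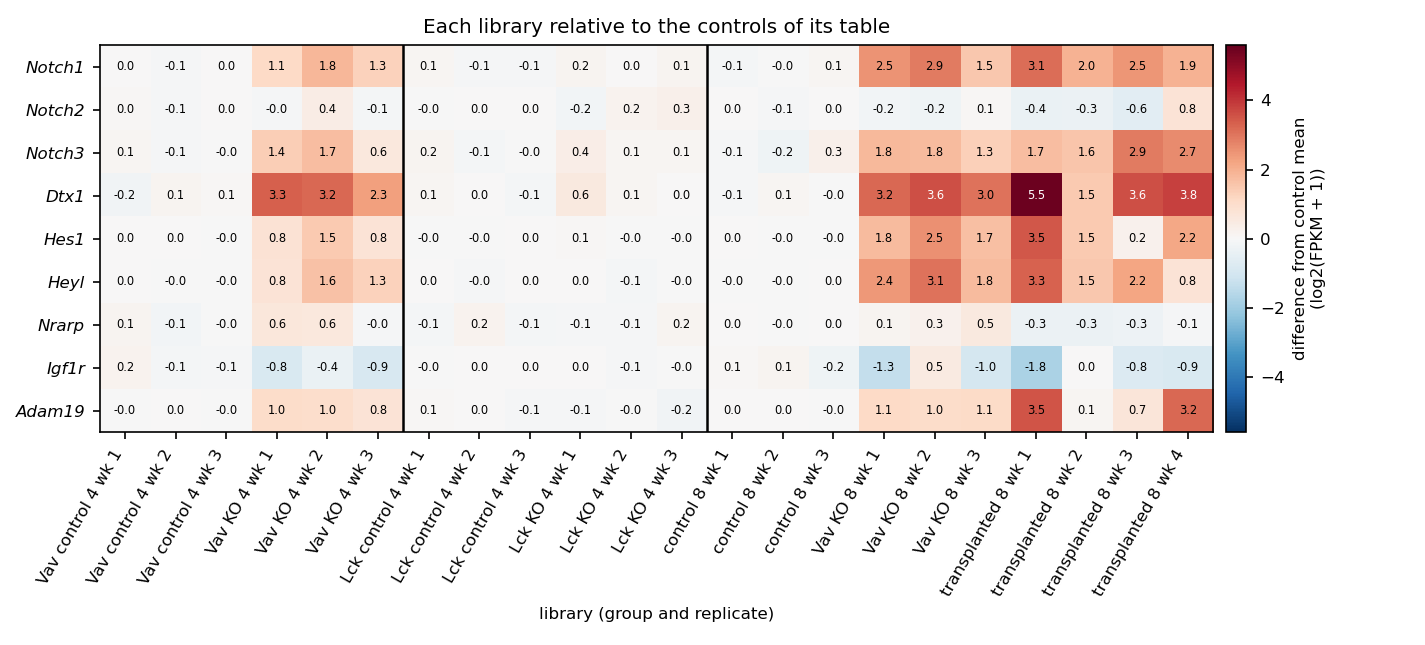
Each library's log2(FPKM + 1) minus the mean of the controls of its table, with genes in rows and libraries in columns, red above and blue below the controls and black lines between tables. Transplanted replicate 1 shows Dtx1 at 5.475 and Adam19 at 3.52, replicate 2 shows 1.47 and 0.091, and Nrarp is below 0 in all 4.

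Between transplanted and untransplanted Vav knockouts 0 of 8 genes passed, 0 had an unadjusted p under 0.05, and 0% of all 11632 genes passed, with 681 at an unadjusted p under 0.05 (limma). The intervals were wide. That of Notch1 ran from -0.76 to 0.89 around 0.06, that of Notch3 from -0.16 to 1.31 around 0.58, and that of Dtx1 from -1.31 to 1.95 around 0.32. For Hes1 it was -1.57 to 1.23 and for Adam19 -0.92 to 2.52. Both groups were compared with the same 3 control libraries, so their changes against control are not independent of each other.

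**Figure D4:**
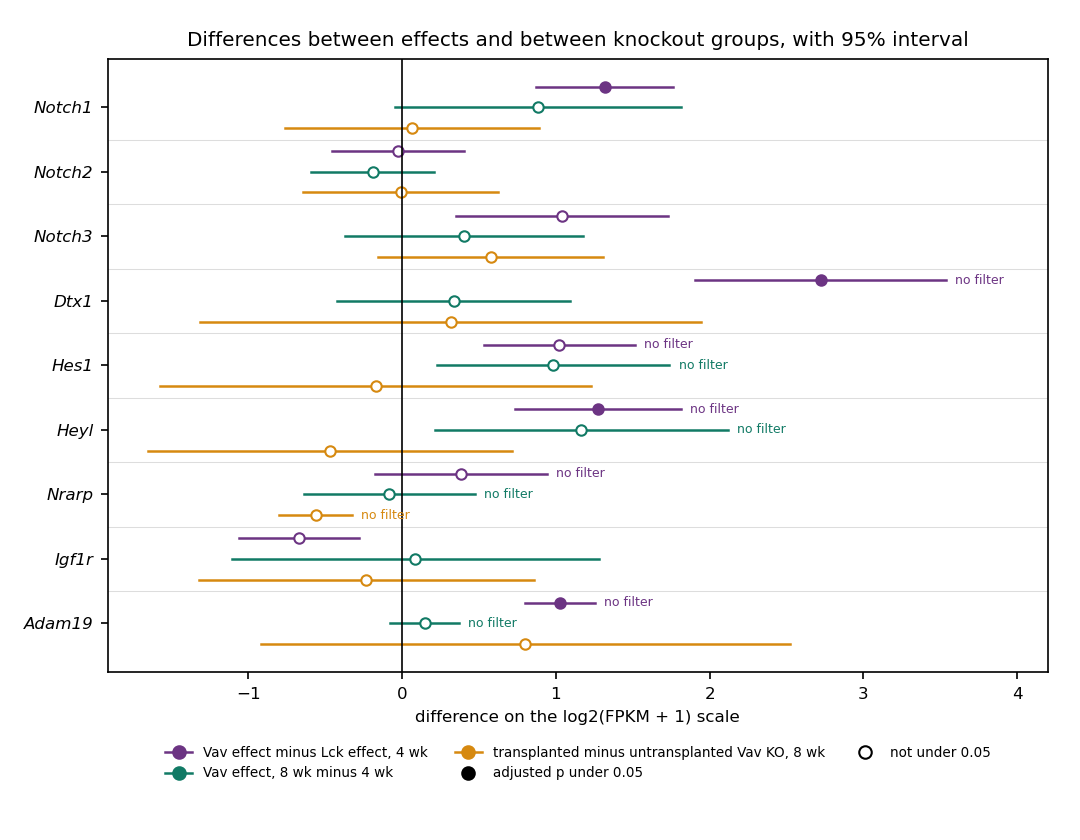
Differences between effects and between the knockout groups on the log2(FPKM + 1) scale (horizontal axis) with 95% intervals, filled where the adjusted p was under 0.05 and marked "no filter" where the gene was below the level for the main test. The Vav effect exceeded the Lck effect for Notch1 by 1.32, and all points of the other 2 differences are open.

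Ordered by group mean, Notch1 was highest in transplanted knockouts (63.4 ± 27.0 FPKM, SD, n = 4), then in Vav knockouts at 8 weeks (61.9 ± 28.1, n = 3) and 4 weeks (45.4 ± 12.4, n = 3), and these 3 overlapped. Below them came the Vav controls of 4 weeks (15.9 ± 0.563), which did not overlap either neighbour, then Lck knockouts (12.0 ± 0.622), Lck controls (11.1 ± 0.854) and 8-week controls (10.7 ± 0.809), which overlapped in turn. Levels in different tables were normalized separately and are given side by side without a test. Dtx1 had the same 3 groups on top, transplanted knockouts at 26.5 ± 26.9 FPKM, Vav knockouts at 18.2 ± 6.59 (4 weeks) and 13.7 ± 3.13 (8 weeks), and the 4 remaining groups between 0.491 and 1.38 FPKM. Across the 9 genes, Notch1 had the highest level per length in every group, and Hes1 the lowest in every control group.

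Over the 22 libraries, expressed as differences from the control mean of each table, the protein-coding genes closest to Notch1 among 9519 were Heyl (Pearson r = 0.967), Fbxo17 (0.963), Sema4c (0.961), Zdhhc2 (0.957) and B4galt5 (0.957). Those closest to Dtx1 were Trib2 (0.984), Rps6ka1 (0.948), B4galt5 (0.948), Ptpn14 (0.947) and Ccnb1ip1 (0.947). The libraries fall into a low and a high set, so these values mostly describe that split. Within the 10 Vav-deleted libraries alone, Notch1 had r = 0.886 with Heyl, 0.627 with Hes1, 0.585 with Dtx1, 0.469 with Notch3 and -0.499 with Nrarp. Dtx1 had r = 0.815 with Adam19 and 0.520 with Heyl. The libraries share tables and controls, and these values are descriptions.

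The other genes of the pathway were counted in full by their role. Of 6 ligand and receptor genes (Dll1, Dll3, Dll4, Jag1, Jag2 and Notch4), only Jag2 reached the level for the test, and it was not called in any of the 7 comparisons. Of the 5 sugar-transferring enzymes that modify Notch receptors, 2 rose in Vav knockouts at 4 weeks and in both 8-week comparisons with control. In these 3 comparisons 7.63%, 4.65% and 4.59% of all genes were higher. The 2 enzymes were Lfng and Mfng, Fringe enzymes that change how receptors respond to ligands. Lfng read 0.309 to 0.501 FPKM in Vav controls and 1.62 to 2.74 FPKM in Vav knockouts at 4 weeks (change 1.13, adjusted p = 0.00582). At 8 weeks it changed by 2.01 (0.0404) in Vav knockouts and 2.29 (0.0193) in transplanted knockouts, the first of which did not pass without the filter (0.083). At both ages Lfng passed the filter only through the groups where it is high. Mfng read 7.34 to 8.08 FPKM in Vav controls and 11.6 to 14.5 FPKM in Vav knockouts at 4 weeks (change 0.69, 0.0058), and changed by 1.16 (0.00121) and 1.19 (0.000577) at 8 weeks. The difference between ages passed for both, with an effect larger at 8 weeks by 0.88 (0.0383) for Lfng and 0.47 (0.0405) for Mfng, but not without the filter (0.101 and 0.0858). In that test 18.2% of all genes passed. For Rfng, another Fringe enzyme, the effect was lower at 8 weeks by the same test (-0.41, 0.0174, and 0.0292 without the filter).

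Of 9 genes for receptor cleavage, 7 were tested, and 0 were called in each of the 4 comparisons with control, with 1, 0, 2 and 1 at an unadjusted p under 0.05 in Vav knockouts at 4 weeks, Lck knockouts, Vav knockouts at 8 weeks and transplanted knockouts. Of the 8 genes of the nuclear complex, 1 of 7 tested rose in Vav knockouts at 4 weeks, the acetyltransferase Kat2b (0.38, adjusted p = 0.0239, and 0.0519 without the filter), and 0 in the other 3 comparisons. That share is near the 13.7% over all genes. Rbpj read 2.07 to 2.52 FPKM in Vav controls and 2.11 to 2.31 FPKM in Vav knockouts at 4 weeks. Of 8 corepressors tested, Spen, which silences RBPJ-bound genes, fell in Vav knockouts (-0.66, 0.0215) and transplanted knockouts (-0.57, 0.0263) at 8 weeks, and 0 passed at 4 weeks. Of 10 genes of receptor turnover tested, 1 passed, Nle1 (Notchless), which rose by 0.36 (0.0415, and 0.0906 without the filter) in Vav knockouts at 4 weeks, 1.01 (0.00397) at 8 weeks and 1.03 (0.00231) in transplanted knockouts. The 1 of 10 turnover genes and the 1 of 8 corepressors are near the share over all genes. That share was 13.7% at 4 weeks and 9.1% and 9.19% in the 8-week comparisons. Nle1 also acts in ribosome assembly. Between the ages, where 18.2% of all genes passed, the Vav effect was lower at 8 weeks for 1 of 7 cleavage genes, the protease Adam17 (-0.58, 0.00366), and 1 of 8 corepressors, Spen (-0.49, 0.022). It was lower for 3 of 7 genes of the nuclear complex, Crebbp (-0.46, 0.0485), Kat2b (-0.41, 0.0301) and Maml1 (-0.33, 0.023), of which only Maml1 passed without the filter (0.03). It was higher for 1 of 10 turnover genes, Nle1 (0.65, 0.0153).

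Of 14 further genes described as direct targets, 10 were tested in Vav knockouts at 4 weeks, and 2 rose and 1 fell. Over all genes tested 7.63% were higher and 6.08% lower. Il2ra, the interleukin-2 receptor alpha chain that marks cells before beta-selection, read 2.13, 1.90 and 1.84 FPKM in Vav controls and 30.9, 24.7 and 13.5 FPKM in knockouts (change 2.95, adjusted p = 0.00251). Ptcra, the invariant partner of the beta chain at beta-selection, went the other way, from 20.4 to 23.3 FPKM in controls to 7.17 to 10.1 FPKM in knockouts (-1.21, 0.00354). It was also the only gene of these pathway lists called in Lck knockouts (-0.78, 0.027, and 0.0721 without the filter), where 1% of all genes passed. At 8 weeks neither was called. Il2ra read 1.96 to 2.46 FPKM in controls, 3.87 to 24.97 in Vav knockouts and 1.02 to 117.8 in transplanted knockouts, where replicate 4 was below all controls, and Ptcra read 12.1 to 14.2, 0.911 to 12.3 and 2.70 to 24.0 FPKM. Myc, a growth regulator and Notch1 target in leukaemia, changed by 1.51 (0.00468) at 4 weeks, by 3.16 (0.0277) in Vav knockouts at 8 weeks and by 2.57 (0.0436) in transplanted knockouts. Its controls were at 0.937 to 1.09 FPKM in the Vav table of 4 weeks and at 0.734 to 0.945 FPKM at 8 weeks. So it passed the filter at both ages only through the knockouts, and neither 8-week call held without the filter (0.0592 and 0.0876). The Vav effect exceeded the Lck effect for Il2ra by 2.30 (0.00559) and for Myc by 1.15 (0.0262, and 0.0584 without the filter). In that test 2 of 9 genes of this list and 3.3% of all genes passed. The Vav effect on Myc was larger at 8 than at 4 weeks by 1.66 (0.00168). Both Myc differences rest on the same filter. By the same test the cell cycle inhibitor Cdkn1a had a higher effect (1.54, 0.017) at 8 weeks. Hes6 had a lower one (-0.43, 0.0374, and 0.0762 without the filter), so 3 of 10 tested genes of this list passed, where 18.2% of all genes did. The median of Cdkn1a in the 8-week controls was 0.826 FPKM, against 2.555 to 5.206 FPKM in the Vav knockouts. At 8 weeks Cdkn1a therefore passed the filter only through the knockouts. Without the filter 2 of 14 genes of this list had a higher effect and 0 a lower one, where 5.55% of all genes passed.

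Myc lies on chromosome 15, of whose 420 tested genes 35.2% were higher in Vav knockouts at 4 weeks, against 6.51% of genes on other chromosomes. At 8 weeks these shares were 31.6% and 3.54% in Vav knockouts and 26% and 3.71% in transplanted knockouts. None of the 9 Notch genes is on chromosome 15, and the part of the chromosome in the Myc values was not tested. The listed markers of early progenitors before the double-positive stage, in which Notch1 and its targets are normally high, were low at 4 weeks. All 9 (Kit, Cd44, Flt3, Lyl1, Hhex, Mef2c, Bcl11a, Lmo2 and Spi1) stayed under 1 FPKM in every Vav library of 4 weeks. They summed to 0.696 to 1.12 FPKM in controls and 0.696 to 0.976 FPKM in knockouts, with Hhex at 0 in both groups and Bcl11a at 0 in the knockouts. Il2ra, which also marks cells before beta-selection, is not in this list. It read 1.84 to 2.13 FPKM in these controls and 13.5 to 30.9 FPKM in these knockouts. At 8 weeks the 9 listed genes summed to 0.402 to 1.09 FPKM in controls, 0.646 to 2.37 in Vav knockouts and 0.643 to 12.9 in transplanted knockouts, where 7 of 9 and 8 of 9 stayed under 1 FPKM. Kit reached 1.29 FPKM in Vav knockout replicate 1, 12.1 FPKM in transplanted replicate 2 and 2.555 FPKM in transplanted replicate 4. The part of such cells in the Notch values was not tested.

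**Figure D5:**
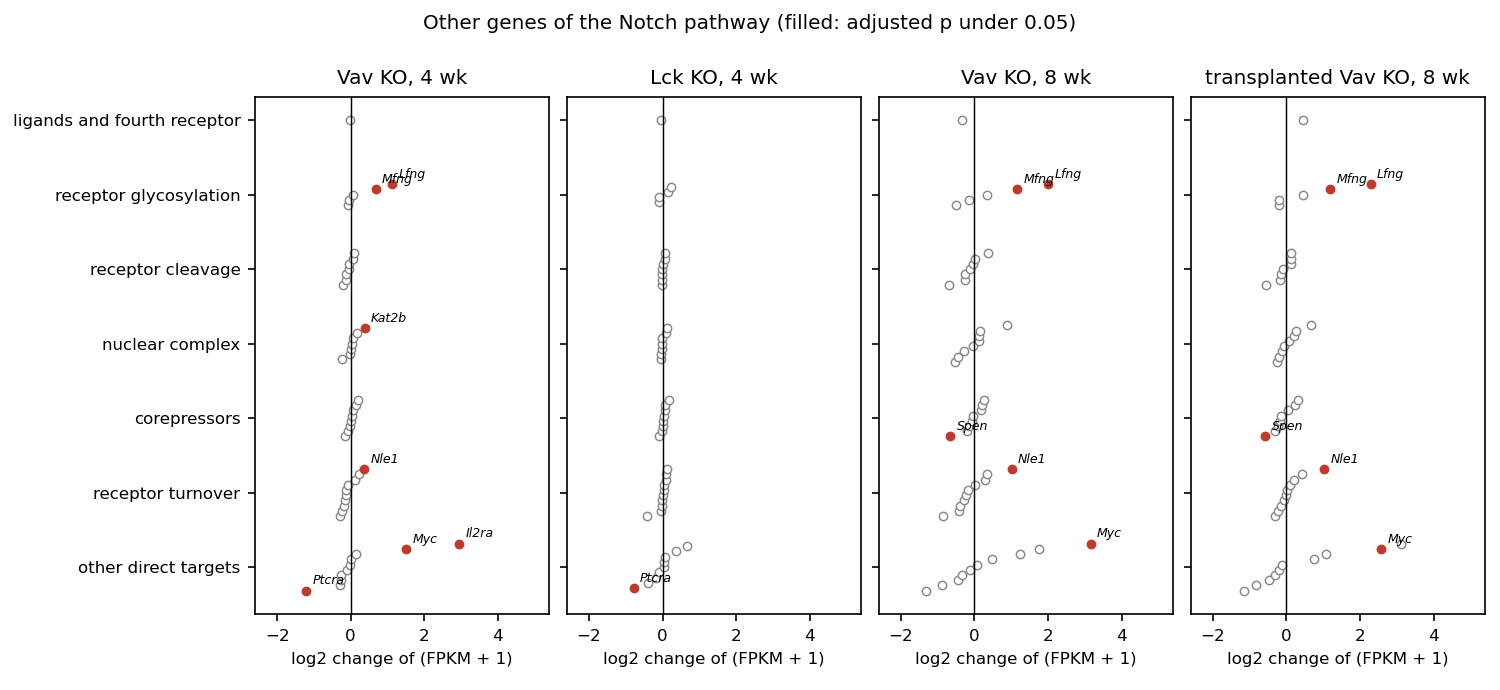
Changes of the tested pathway genes against control on the log2(FPKM + 1) scale (horizontal axes), by list (rows) and comparison (panels), with genes at an adjusted p under 0.05 filled and named. Lfng and Mfng are called in the 3 Vav panels, Ptcra is the only gene called in the Lck panel (-0.78), and 0 genes of receptor cleavage are called in any panel.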

How the data were processed

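The authors deposited FPKM per gene in 3 tables, made separately, from total RNA prepared with RNeasy mini and NuGEN Ovation Ultralow kits, per the labels. The submitters' processing notes name Trimmomatic 0.33, STAR, HTSeq 0.6.1 and DESeq2 with the build mm10, without role or order. The annotation and whether counting used strand are not given in the sources used here, so overlapping and antisense genes cannot be told apart. Columns were matched to samples by name, and symbols came from GENCODE M21 (42546 of 43430 identifiers).

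The 9 genes and the lists were chosen with earlier results of these data known. From the double-positive markers 1 gene is not reported here. The test was limma 3.58.1 with a trended prior (R 4.3.3), run on log2(FPKM + 1) for genes that reached 1 FPKM in 3 or more libraries of every table entering a fit. Benjamini-Hochberg adjustment was over all genes tested, with calls at an adjusted p under 0.05. Each 4-week comparison had 6 libraries, all 8-week comparisons shared a fit of 10, and differences of effects were interactions over 12. All 9 genes were named. From every other pathway list up to 3 called genes per comparison were named by the size of their change, and for Notch1 and Dtx1 the 5 genes with the highest correlation.

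FPKM times exonic length moves in steps of 1 read. A step that the libraries share within a tolerance of 0.03 reads was found for 79.7% of 13836 low genes, and gave the reads of Hes1, Heyl, Nrarp and Adam19 and the totals of 5.49 to 37.5 M reads (M is 1e6). Read counts could not be had for all genes, so no count model was run. The model was run on data simulated with the spread of the controls in every group. That run does not cover the wider spread among the knockout libraries. Alternatives were a pseudocount of 0.1, other filters and scalings, robust variances, a replicate block, each library left out, and, added after low levels were seen, no filter with a pseudocount of 0.1.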

Additional observations from a re-analysis of the deposited data

Results flagged for a closer look

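Notch2 in transplanted replicate 4 read 9.43 FPKM, against 3.09 to 3.92 FPKM in the other 3 transplanted libraries. The gap to its nearest neighbour took 0.869 of the range of the 4 libraries and was above the 95% critical value of Dixon's test. It was 1 of 9 genes tested this way in this group, and chance flags about 1 group in 20.

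By the interaction test in limma, the Vav effect differed from the Lck effect at 4 weeks for 1 of 4 genes tested, where 3.3% of all genes passed. In the fit without the filter it differed for 4 of 9, Notch1 among them, where 1.8% of all genes passed. The difference was 1.32 for Notch1 (adjusted p = 0.00697). Without the filter on low values it was 2.72 for Dtx1 (adjusted p = 0.00783), 1.275 for Heyl (0.0334) and 1.025 for Adam19 (0.0021). Each was higher in 3 of 3 Vav knockout libraries than in all Vav controls, as were 13.6% of all genes of the unfiltered Vav fit. The same libraries entered the interaction test, so this separation is a description and adds no support.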

How the results depend on the processing

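Numbers of Notch genes called moved as follows. Without the filter they were 2 in Vav knockouts at 8 weeks (4 in the report) and 4 for the Vav minus Lck effect (1 in the report), which was 2 with a filter on a mean of 5 FPKM and 5 with no filter and a pseudocount of 0.1. With a pseudocount of 0.1 they were 5 in transplanted knockouts (3 in the report). Libraries with the same replicate number were at most weakly alike (correlations of deviations -0.109 to 0.181). All 6 libraries of control and Vav knockout at 8 weeks correlated best with their own number (0.047 to 0.0672), against 2 of 6 in each other pair of groups. This check does not settle whether those libraries are paired. The replicate block gave 3, 0, 2 and 3 called Notch genes in the 4 comparisons with control and 894, 4, 568 and 568 called genes, and transplanted replicate 4, which has no partner, adds nothing to that fit. Leaving out 1 library gave 2 to 4 called Notch genes in Vav knockouts at 4 weeks, 0 to 5 at 8 weeks, 2 to 5 in transplanted knockouts, 1 to 2 for the Vav minus Lck effect, 0 to 1 for the effect of age and 0 in Lck knockouts and between the knockout groups. With 1 library fewer each fit has fewer samples.

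Signs that turned were all of values that did not pass. Leaving out 1 library took Notch2 from -0.0871 (without Vav knockout replicate 2) to 0.181 in Vav knockouts at 4 weeks, from -0.419 to 0.0312 (without replicate 3) in transplanted knockouts and from -0.192 to 0.076 (without Vav knockout replicate 3) for the Vav minus Lck effect. For the effect of age Igf1r ranged from -0.477 (without the 8-week Vav knockout replicate 2) to 0.456. Between transplanted and untransplanted knockouts the ranges were -0.344 to 0.37 for Notch1, -0.306 to 0.144 for Notch2, -0.308 to 1.025 for Dtx1, -0.724 to 0.366 for Hes1 and -0.603 to 0.33 for Igf1r. There Notch2 was 0.019 with a common sum. In Lck knockouts Hes1 was -0.0154 with no filter and a pseudocount of 0.1. The causes were not tested.

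A common sum moved the median of all genes by over 0.1 only in Vav knockouts at 8 weeks, to -0.119. Over all genes, a library left out gave 2 to 83 calls in Lck knockouts (110 in the report), 490 to 1560 in Vav knockouts at 4 weeks (1484), 199 to 3814 in transplanted knockouts (1069), 128 to 489 for the Vav minus Lck effect (348) and 1014 to 2179 for the age effect (1913). Depth limits Hes1, Heyl, Nrarp and Adam19, which have 0 to 45 reads in controls.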
